A study of Mus musculus with 4 samples.

Results

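Nucleolar ribosome biogenesis factors are the proteins that transcribe, modify, cut and fold ribosomal RNA and join it to ribosomal proteins. The list named 43 such genes, and 42 had a value here. Each was selected on the platform annotation: a feature (probe set) counted where the annotation gave it exactly 1 gene symbol and that symbol was on the list. A gene with more than 1 such feature took the one chosen by the highest mean over the 4 arrays. That choice arose for Wdr12 alone. Noc2l had no feature that carried its symbol alone and was not analysed here. The whole table held 22431 features, and those with 1 symbol stood for 18920 genes.

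The arrays measured RNA of retinal cells from BAC-Crx-EGFP mice at embryonic stage E17.5, on the 129Sv/Ev genetic background. In these mice a large transgene built from a bacterial artificial chromosome (BAC) puts the enhanced green fluorescent protein (EGFP) under regulatory sequence of the photoreceptor gene Crx. Retinal cells of this 1 genotype were sorted by EGFP, and both fractions, positive and negative, carry the transgene, with 2 replicates of each. Nothing in the labels ties a replicate to its own animal, litter or sort, so the spread behind each p-value may be technical only. All 10 marker genes of photoreceptor precursors were called higher in positive cells, at a median difference of 2.92 (log2). Crx defined the sort, so this checks the labels and is no finding. Intensity differs between probe sets for reasons other than abundance, so no gene's level is set against another's.

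Ribosome production starts in the nucleolus, where RNA polymerase I copies the ribosomal DNA into a long precursor. Small nucleolar ribonucleoproteins (snoRNPs), made of a guide RNA and a fixed set of proteins, place chemical marks on it. Box C/D snoRNPs methylate the ribose, and box H/ACA snoRNPs convert uridine to pseudouridine. Processing factors then cut the precursor and assemble a small and a large ribosomal subunit. Dividing progenitors must double their ribosomes at every division, and cells that leave the cycle need fewer new ones.

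Nucleolar factors had slightly lower means in the EGFP-positive cells, and 1 of the 42 passed the test across the whole table. That gene was Gar1, a core protein of box H/ACA snoRNPs, which fell by 0.96 ± 0.12 on the log2 scale (SE, n = 2 per fraction, limma adjusted p = 0.0429). In all, 39 of 42 members had a mean difference below 0, against 52.2% of all features. The median difference was -0.29, or 1.22-fold higher in the negative fraction, beside a median of -0.01 over all features. The test was limma on log2 intensity, positive minus negative, with p-values adjusted over all 22431 features and a threshold of 0.05. It called 0.143% of all features lower and 0.82% higher. Limma called 0 members higher, and 0 were higher even at an unadjusted p under 0.05. At that unadjusted level 20 members were lower, against 9.83% of all features. Among the 9623 features in the members' range of mean intensity, 1648 were lower at that level. This fit left out the replicate numbers, since the labels do not say what a number marks. With the replicate number as a block, limma called 11 members lower, beside 1500 of the 22431 features.

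Promoter sequences of genes at the ends of this range are given before the values. RefSeq windows of assembly GRCm38.p6, from 250 bases before to 50 bases after a gene's start, existed for 36 of the 42 genes. The next lines show the 150 bases before the start of Gar1 (chr3:129831397-129831546, minus strand), Nop10 (chr2:112261776-112261925, plus strand) and Nolc1 (chr19:46075697-46075846, plus strand). The first 2 had the lowest and the third lowest difference of all members, and Nolc1 had the second highest. Capitals mark the dinucleotide CG.
Gar1: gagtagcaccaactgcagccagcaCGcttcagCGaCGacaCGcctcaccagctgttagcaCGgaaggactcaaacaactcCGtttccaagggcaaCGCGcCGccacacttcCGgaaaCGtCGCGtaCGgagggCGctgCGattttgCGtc
Nop10: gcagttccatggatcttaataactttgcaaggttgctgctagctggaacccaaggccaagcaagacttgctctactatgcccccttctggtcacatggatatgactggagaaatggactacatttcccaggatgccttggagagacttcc
Nolc1: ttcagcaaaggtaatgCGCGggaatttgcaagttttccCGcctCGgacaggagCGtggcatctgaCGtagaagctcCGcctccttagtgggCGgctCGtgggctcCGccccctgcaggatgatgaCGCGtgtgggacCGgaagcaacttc
The stretch of Gar1 held 17 CG dinucleotides, that of Nolc1 13 and that of Nop10 0. Over the full windows the members had a median of 22.5 CG dinucleotides, with a range from 7 in Nop10 to 44, taking the highest window where a gene had several. The median was 17 over 15112 genes with a window and a feature of 1 symbol. The full windows of Gar1 and Nolc1 held 30 and 18, and that of Polr1e, the member with the highest difference, held 12. Nolc1 and Polr1e thus lay between Nop10 and Gar1, so the counts of these genes did not follow their differences.

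The letters CACGTG, the canonical E-box that Myc and Max proteins bind, were searched in the same windows. They read the same on both strands. They occurred in 7 of 36 members, or 19.4%, against 9.51% of the 15112 genes. The motif holds a CG, and the median CG count was 22.5 in the members' windows against 17. The shares were not matched for CG content, and their difference was not tested. The lines below show the match in capitals with its neighbours, read along the gene's strand in GRCm38.p6.
Pes1 (chr11:3963965-3963994, plus strand): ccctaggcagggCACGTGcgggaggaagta
Rpf2 (chr10:40246988-40247017, minus strand): aagtaatcggtaCACGTGcattcgctaagg
Nop2 (chr6:125131811-125131840, plus strand): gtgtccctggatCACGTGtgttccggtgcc
Utp20 (chr10:88826765-88826789, minus strand): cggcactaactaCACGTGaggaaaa
Wdr43 (chr17:71616220-71616249, plus strand): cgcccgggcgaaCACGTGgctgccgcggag
Tsr1 (chr11:74898092-74898121, plus strand): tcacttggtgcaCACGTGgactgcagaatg
Mybbp1a (chr11:72441355-72441376, plus strand): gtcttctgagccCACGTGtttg
The matches of Pes1, Wdr43, Tsr1, Utp20 and Mybbp1a lay after the annotated start, with their first letter at base 3, 18, 25, 38 and 41. That of Nop2 lay 60 bases before it. Rpf2 had 2 annotated starts, and its match lay 26 bases before one and at base 35 after the other. The median log2 difference was -0.30 over these 7 genes and -0.25 over the members with a window and no match. Gar1, Nop10, Nop58 and Nhp2, among the members with the largest differences, had no match in this window. A match is a description of the letters and no evidence of binding.

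Box H/ACA genes had the lowest median difference of the 6 role groups, at -0.62 (log2) over 4 genes. All 4 read lower on both positive arrays than on either negative array, as did 25.3% of all features. Gar1 binds the catalytic subunit of the particle. It read 514.1 and 585.0 on positive arrays 1 and 2 and 1104.5 and 1027.1 on negative arrays 1 and 2, as normalised intensity on a linear scale. The positive arrays lay far below the negative ones, and the negative fraction was 1.94-fold higher. The 95% interval of the log2 difference ran from -1.25 to -0.66. Gar1 lay close to the threshold and was called at 8 of 12 alternative settings. Its adjusted p over the 12 alternatives ranged from 0.00978 to 0.312. It was 0.00978 with the replicate number as a block in limma, and 0.0565 when limma let the variance follow the intensity. The adjusted p was 0.0538 without positive replicate 2, 0.312 without negative replicate 1 and 0.240 without negative replicate 2. With 1 array left out, the lone array of a fraction is assumed to vary like the pair of the other, from which the spread is then taken.

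The partners of Gar1 were lower as well but were not called without a replicate block. With that block, Nop10 and Nhp2 were called and Dkc1 was not. Nop10, the smallest protein of the particle, read 407.8 and 392.3 on the positive and 603.8 and 673.3 on the negative arrays. Its log2 difference was -0.67 ± 0.11 (adjusted p = 0.0703), the lowest adjusted p among members that were not called. Nhp2, which binds the guide RNA, read 415.0 and 331.2 in positive and 590.2 and 515.5 in negative cells (-0.57 ± 0.15, limma adjusted p = 0.138). In both genes the fractions did not overlap. For Nop10 the gap between the fractions exceeded the distance between replicates, and for Nhp2 it did not exceed that between its positive replicates. Dkc1 encodes dyskerin, the pseudouridine synthase of the particle, and had the smallest difference of the 4 (-0.39 ± 0.14, limma adjusted p = 0.221). The same 4 proteins are part of the telomerase particle.

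**Figure D1:**
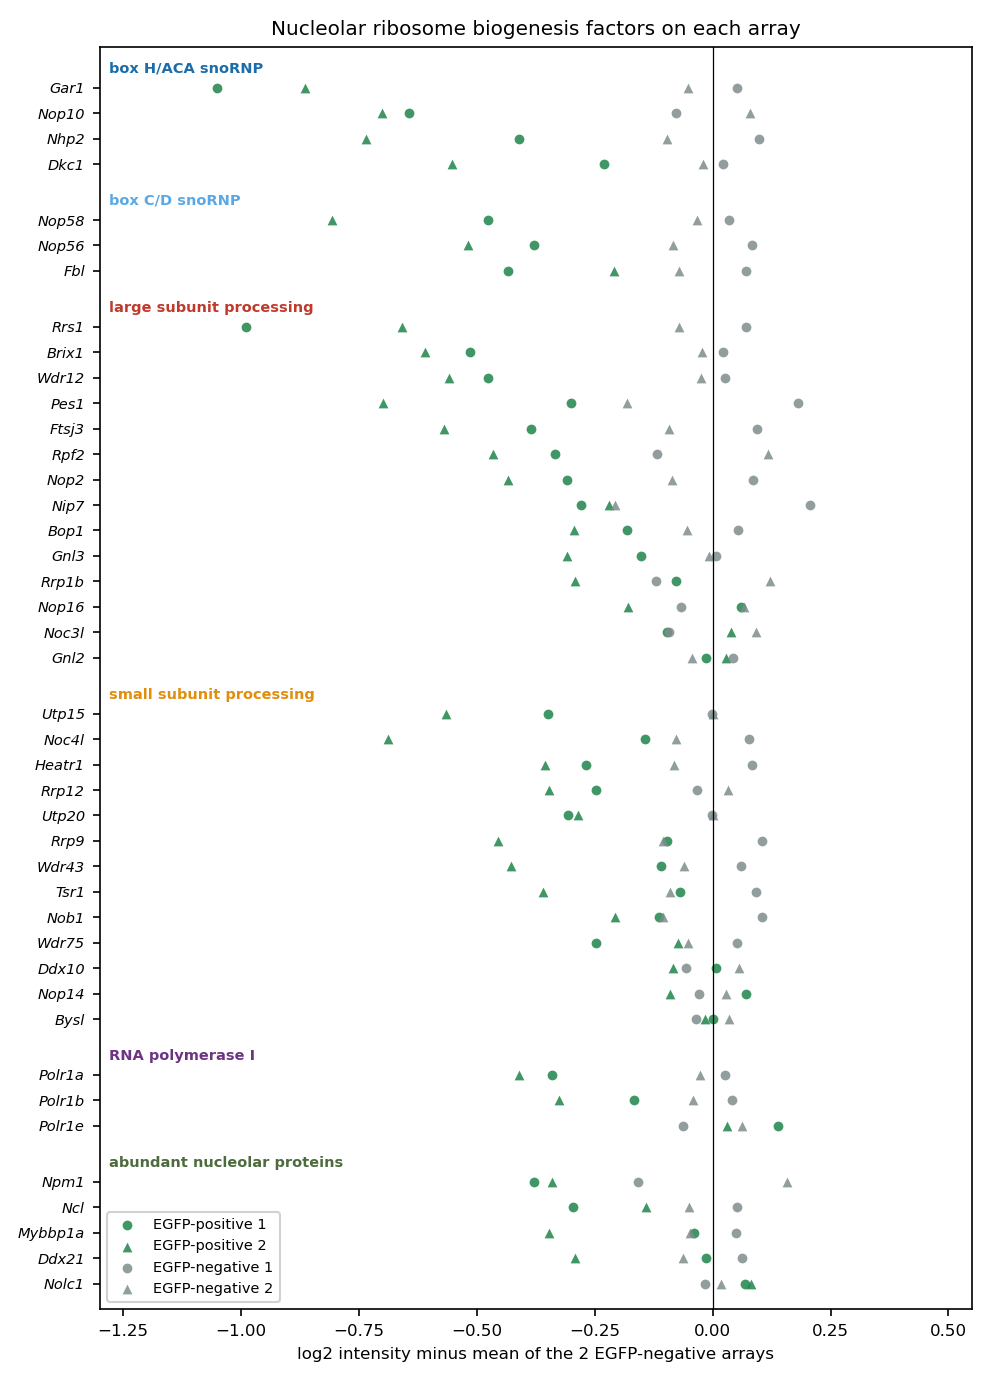
Log2 intensity of each of the 42 measured genes on each array, minus the mean of that gene on the 2 EGFP-negative arrays (x axis), with genes in rows grouped by role. Green marks are positive arrays and grey marks negative arrays; circles are replicate 1 and triangles replicate 2. In 29 of 42 genes both green marks lie left of both grey marks, and in Nolc1 alone both lie right.

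Box C/D genes were also lower on the positive arrays in all 3 cases, with a median difference of -0.45 (log2) and none called by limma. Nop58 and Nop56 are paired scaffold proteins of the particle. Nop58 read 1383.2 and 1098.6 on the positive and 1969.5 and 1878.5 on the negative arrays (log2 difference -0.64 ± 0.14, limma adjusted p = 0.105). Nop56, the brightest probe set of the 3, read 1847.7 and 1677.8 against 2545.9 and 2268.2 (-0.45 ± 0.12, limma adjusted p = 0.136). Both positive arrays stood below both negative arrays in each gene, with positive replicate 2 the lowest of the 4. For Fbl, which encodes the methyltransferase fibrillarin, the difference was -0.32 ± 0.13 (limma adjusted p = 0.260), and here positive replicate 1 was the lowest. Without positive replicate 1 its partner Nop58 differed by -0.81 (limma adjusted p = 0.0344), with the spread taken from the negative arrays alone.

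Of 14 measured factors of the large subunit, 13 had a difference below 0, with a median of -0.31, and 10 separated the fractions without overlap. Limma called 0 of them, and 7 had an unadjusted p under 0.05. Over all features 25.3% separated in this direction and 9.83% were lower at that level. Rrs1 and Rpf2 form a complex that brings the 5S ribosomal RNA into the precursor. Rrs1 read 274.1 and 344.7 on the positive and 571.7 and 517.5 on the negative arrays. Its log2 difference of -0.82 ± 0.15 (limma adjusted p = 0.0814) was second in size to that of Gar1, and its positive replicates differed by 0.33 on the log2 scale. Rpf2, the dimmest member, differed by -0.40 ± 0.13 (limma adjusted p = 0.185).

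Brix1, an assembly factor that shares the Brix domain with Rpf2, read 656.3 and 614.1 on the positive and 952.2 and 923.7 on the negative arrays. These replicates lay close together in both fractions, and the difference was -0.56 ± 0.10 (limma adjusted p = 0.0832). Ftsj3, a methyltransferase of precursor RNA, was the brightest large subunit probe set. It read 747.2 and 657.6 on the positive against 1041.6 and 915.3 on the negative arrays (-0.48 ± 0.13, limma adjusted p = 0.137). Both positive arrays again lay below both negative ones.

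Pes1, Bop1 and Wdr12 encode the 3 proteins of the PeBoW complex, which is needed for the maturation of the large subunit RNA. Pes1 read 771.6 and 585.2 on the positive and 1078.0 and 838.1 on the negative arrays (log2 difference -0.50 ± 0.19, limma adjusted p = 0.249). Replicate 2 was lower than replicate 1 in both fractions, by 0.40 and 0.36. Positive replicate 1 minus negative replicate 1 was -0.48, and positive replicate 2 minus negative replicate 2 was -0.52. Bop1 differed by -0.24 ± 0.11. Wdr12 had 2 features. The one kept read 359.2 and 339.3 against 508.4 and 490.9 (-0.52 ± 0.10, limma adjusted p = 0.0874). The other read 307.8 and 283.2 against 349.1 and 316.1 (-0.17 ± 0.11, limma adjusted p = 0.516). The annotation gives both features the symbol Wdr12, and which of them reads the gene better was not tested, so the size of its difference is uncertain.

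The remaining large subunit genes spread from lower values to no difference. Nop2, an RNA methyltransferase of the large subunit RNA, differed by -0.37. Gnl3, or nucleostemin, a GTPase known from stem and other dividing cells, differed by -0.23, and Rrp1b by -0.19. Nip7, a factor of precursor processing, read 363.3 and 378.4 on the positive and 508.5 and 381.9 on the negative arrays (-0.25 ± 0.16). Its negative replicate 2 lay next to the positive arrays. The difference was -0.04 without negative replicate 1 and -0.46 without negative replicate 2. Nop16, Noc3l and Gnl2 differed by -0.06, -0.03 and 0.01. Gnl2, a GTPase of the same family as Gnl3, read 813.1 and 836.9 against 846.0 and 796.4, with a 95% interval from -0.25 to 0.26. The difference between Gnl3 and Gnl2 was not tested.

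All 13 factors of the small subunit had a difference below 0, with a median of -0.27, and 8 separated the fractions. Limma called 0, and 4 had an unadjusted p under 0.05. The shares of all features were 25.3% for such a separation and 9.83% for that p. The subunit of the early processome encoded by Utp15 had the largest difference (-0.46 ± 0.12, limma adjusted p = 0.133). Its partners in that early complex differed by -0.31 for Heatr1, -0.27 for Wdr43 and -0.16 for Wdr75. Wdr43, the brightest probe set of the group, read 1395.8 and 1119.1 on the positive and 1570.0 and 1442.7 on the negative arrays. Positive replicate 1 lay close to the negative arrays, and the interval of the difference ran from -0.63 to 0.09.

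Noc4l and Nop14 encode partner proteins that bind each other on the small subunit precursor. Noc4l read 539.7 and 370.0 on the positive and 629.3 and 565.1 on the negative arrays (log2 difference -0.42 ± 0.20, limma adjusted p = 0.351). Its positive replicates differed by 0.54, the largest such distance of any member. Nop14 differed by -0.01, with an interval from -0.29 to 0.27, and that of Noc4l ran from -0.92 to 0.09. These wide intervals overlap. Utp20 and Rrp12, scaffold proteins built of long helical repeats, each differed by -0.30, and Rrp9, a protein of the U3 snoRNP, by -0.28. Of factors that act late, Tsr1 differed by -0.21 ± 0.14 and Nob1, the nuclease that makes the final cut of the small subunit RNA, by -0.16 ± 0.12. The helicase gene Ddx10 differed by -0.04 and Bysl, a late assembly factor, by -0.01.

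Of the 3 genes of RNA polymerase I, 2 had a difference below 0 and limma called 0. Polr1a and Polr1b encode the large subunits that form the active centre. Polr1a read 554.6 and 528.2 on the positive and 715.1 and 689.4 on the negative arrays (log2 difference -0.38 ± 0.10, limma adjusted p = 0.139). Polr1b differed by -0.25 ± 0.11, and both genes separated the fractions without overlap. Polr1e, a smaller subunit that helps initiation, read 410.6 and 380.7 on the positive and 357.1 and 389.5 on the negative arrays. Its difference of 0.08 ± 0.11 was the highest of all members, and its fractions overlapped. Its interval, from -0.19 to 0.36, overlapped those of Polr1a and Polr1b, and the difference between the subunits was not tested.

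Genes of proteins that are abundant in the nucleolus differed little, with a median of -0.19 over 5 genes and none called by limma. Ncl encodes nucleolin, which binds precursor RNA, and was the brightest probe set of all members. It read 2430.9 and 2705.4 on the positive and 3089.4 and 2879.5 on the negative arrays (log2 difference -0.22 ± 0.11, limma adjusted p = 0.386). The fractions did not overlap, but the interval of the difference ran from -0.50 to 0.07. Npm1, or nucleophosmin, a chaperone of assembly, differed by -0.36 ± 0.14, the only one of the 5 with an unadjusted p under 0.05. Mybbp1a and the helicase gene Ddx21 differed by -0.19 and -0.15, with overlapping fractions.

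Nolc1, also known as Nopp140, is a chaperone that ferries both kinds of snoRNP. It read 933.2 and 941.9 on the positive and 879.4 and 900.5 on the negative arrays. It was the only member with both positive arrays above both negative arrays, by 0.08 ± 0.10 on the log2 scale (limma adjusted p = 0.783). Its interval, from -0.17 to 0.32, overlapped that of the box H/ACA gene Dkc1, which ran from -0.74 to -0.04. The intervals of Gar1, Nop10 and Nhp2 lay below it, that of Nhp2 ending at -0.19. Nolc1 was not tested against its client proteins.

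**Figure D2:**
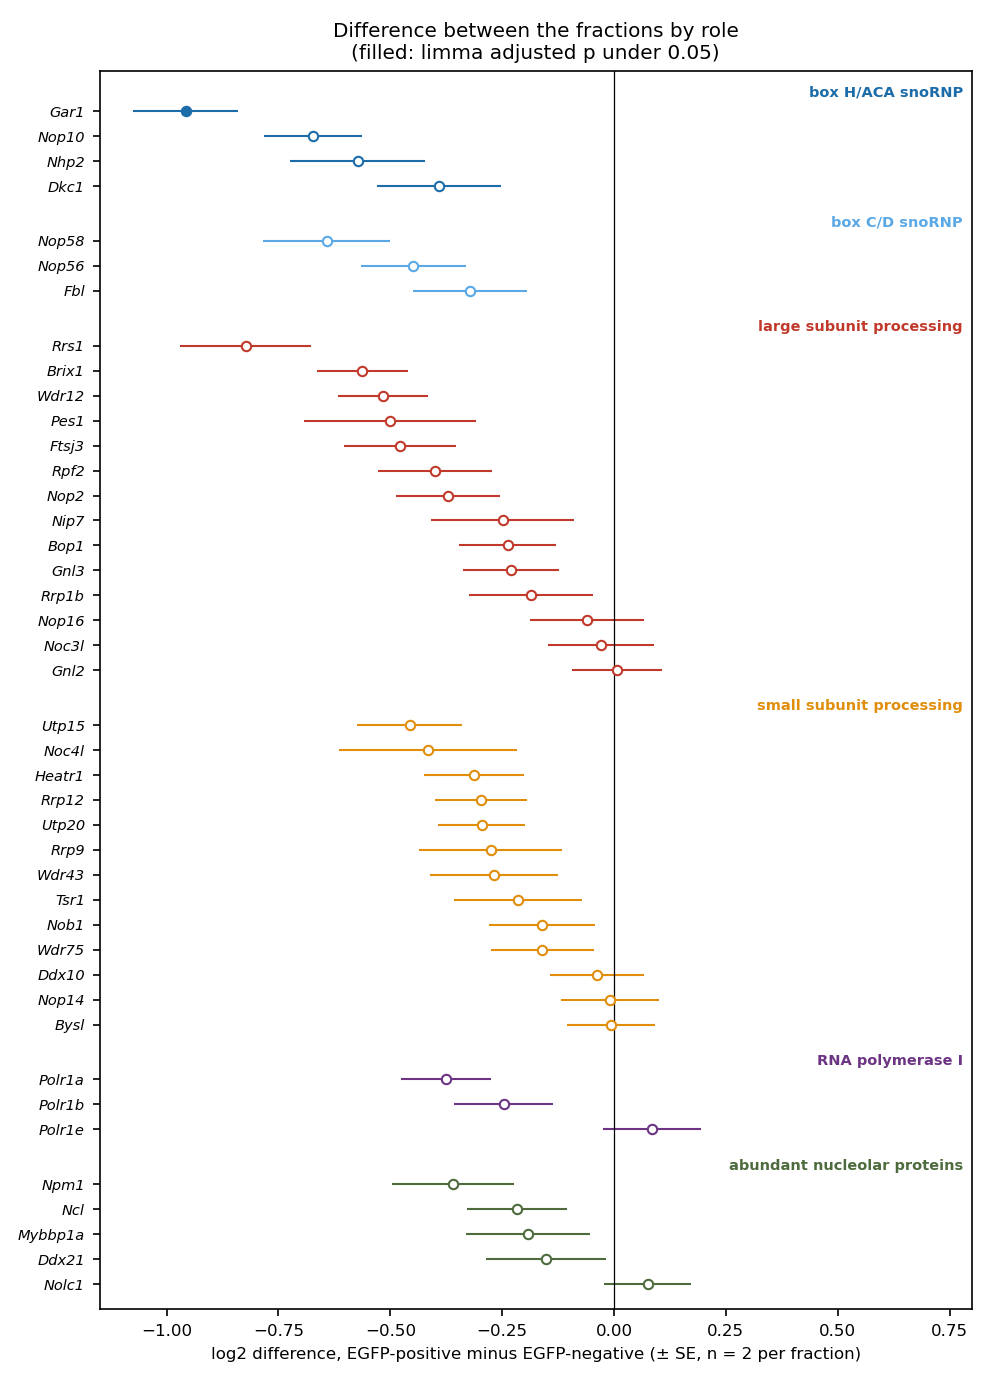
Log2 difference, EGFP-positive minus EGFP-negative, with its standard error (n = 2 per fraction), for the 42 measured genes in rows grouped by role. The filled point, Gar1 at -0.96, is the only one past an adjusted p of 0.05, and the highest point is Polr1e at 0.08.

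Over all 42 members, 29 read lower on both positive arrays than on both negative arrays, beside 25.3% of all features. A further 10 members below 0 had overlapping fractions. There were 8 members within 0.1 of 0 on the log2 scale, 5 of them below 0: Polr1e, Nolc1, Gnl2, Bysl, Nop14, Noc3l, Ddx10 and Nop16. Their 95% intervals reached no further than 0.38 from 0. Bysl and Nop14, just below 0, turned positive after another quantile normalisation and with each array centred on its median.

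The size of the difference did not go with the brightness of the probe set. All 42 members were brighter than the median feature, with mean log2 intensities from 8.06 to 11.43. Across the 42 genes, Pearson's r between mean intensity and difference was -0.05 and Spearman's rho 0.00, and the genes share the same 4 arrays. Features in this range of intensity had a median difference of -0.01, and 51.5% of those 9623 features were below 0. In that range 31.9% of features had both positive arrays below both negative arrays, against 69.0% of the members. The differences repeated in part between disjoint pairs of arrays. Positive 1 minus negative 1 against positive 2 minus negative 2 had a Pearson's r of 0.63 over the 42 genes, and the crossed pairs 0.53.

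Positive replicate 2 was the array with the lowest values. The members' median log2 difference was -0.23 and -0.19 for positive replicate 1 against negative replicates 1 and 2, and -0.38 and -0.32 for positive replicate 2. Replicate 2 read below replicate 1 for 31 of 42 members in positive cells and for 28 of 42 in negative cells. Over all 22431 features the counts were 10215 in positive and 12903 in negative cells. Genes of proliferation moved the same way and further. All 18 measured genes of that list averaged less in positive cells, at a median of -1.13. Limma called 0 of them, while 16 were lower at an unadjusted p under 0.05, against 9.83% of all features. Their summed intensity was 26145 and 13981 on positive arrays 1 and 2 and 45144 and 36630 on the negative arrays.

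Retinal progenitor genes were lower too. Of 12 measured, 10 were below 0, with a median of -0.81, and Sox2 was called. Their summed intensity ran from 22384 to 28725 on positive and from 38835 to 39274 on negative arrays. No value on these arrays was 0. The nucleolar genes' summed intensity was 30800 and 28641 on positive and 37619 and 36213 on negative arrays, a smaller step than in either marker list. The part of cycling progenitors in the nucleolar differences was not tested. In sorted pools, fewer cells of a type and less RNA per cell cannot be told apart.

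Markers of other cell types gave mixed values. Of 10 amacrine and horizontal cell genes all were above 0, with a median of 0.59 and 2 called higher. The 11 ganglion cell genes had a median of 0.18. Their summed intensity was higher in replicate 2 of both fractions, 12078 against 7203 among positive and 11532 against 5162 among negative arrays. The 6 microglia genes had a median of -0.11, with summed intensities of 770.0 and 805.0 in positive and 838.1 and 761.3 in negative cells. The 6 endothelial genes had a median of -0.01, while their summed intensity was 3924 and 1870 on positive and 5630.2 and 3584 on negative arrays. Most of that sum was Kdr, a receptor that retinal progenitors also express, which was picked out after its values were seen. The 95% interval of its log2 difference ran from -2.35 to 0.34 (limma adjusted p = 0.403). The 6 pigment epithelium genes had one of 0.01, and the 3 measured erythroid genes one of 0.00. What these lists contribute to the nucleolar values was not tested.

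Further genes of the pathway, taken from related lists, showed the same sign at small size. Of 42 other small subunit factors 40 were below 0, with a median of -0.25. Limma called 0, and 11 of those below 0 had an unadjusted p under 0.05, against 9.83% of all features. In the members' range of mean intensity it was 1648 of 9623 features. Nop9, an RNA-binding factor, had the lowest difference (-0.62 ± 0.12, limma adjusted p = 0.0850), and Nat10, an RNA acetyltransferase, the highest (0.10 ± 0.10). Of 43 other large subunit factors 36 were below 0, with a median of -0.18. Limma called 0, with 10 lower ones at an unadjusted p under 0.05, beside the same 9.83%. The range ran from Sdad1 (-0.60 ± 0.12, limma adjusted p = 0.0914) to Nol8 (0.19 ± 0.10).

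Genes that assemble snoRNPs had the lowest median of the related lists, -0.46 over 10 genes. Of these 9 were below 0 and 8 separated the fractions, beside 25.3% of all features. Limma called 0, and 6 had an unadjusted p under 0.05, against 9.83% of all features. The lowest was Ruvbl1, a helicase of the assembly machine, which read 802.4 and 631.0 on the positive and 1095.2 and 1001.8 on the negative arrays (-0.56 ± 0.15, limma adjusted p = 0.141). Shq1, the chaperone of dyskerin, differed by -0.55 ± 0.12 (limma adjusted p = 0.102). Naf1, which holds the place of Gar1 in the immature particle, differed by -0.23 ± 0.17. The highest was Nol3 (0.00 ± 0.10), an inhibitor of cell death that does not assemble snoRNPs and stood in the list by mistake. The counts and the median above include it.

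The RNA exosome, which trims the ends of precursor RNA, had 12 of 13 genes below 0 and a median of -0.22. Limma called 0 of these genes, and 4 had an unadjusted p under 0.05, against 9.83% of all features. Exosc2, a cap subunit, read 460.5 and 396.3 on the positive and 851.5 and 628.9 on the negative arrays (-0.78 ± 0.18, limma adjusted p = 0.112). The helicase gene Mtrex was highest (0.06 ± 0.14). The fractions of Exosc2 did not overlap, while its negative replicates stood apart.

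Polymerase genes beyond the members did not shift together. Of 12 other genes of RNA polymerase I transcription 8 were below 0, with a median of -0.04. With limma 0 were called, and 1 was lower at an unadjusted p under 0.05, near the 9.83% of all features. They ran from Taf1a, of the promoter selectivity factor (-0.42 ± 0.12), to the initiation factor gene Rrn3 (0.16 ± 0.13). Ubtf, which binds the ribosomal DNA promoter, differed by -0.03. RNA polymerase III, which makes 5S and transfer RNA, had 7 of 13 genes below 0 and a median of -0.08. Again 0 were called by limma, and 1 was lower at an unadjusted p under 0.05, also near that share. The range ran from Polr3e (-0.29 ± 0.10) to Polr3gl (0.28 ± 0.11).

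Cytosolic ribosomal protein genes, the products' own parts, were measured for 33 of 79 listed symbols. Of these 32 were below 0, with a median of -0.19. Most of this came from positive replicate 2, where 31 and 30 genes read below negative replicates 1 and 2 (medians -0.35 and -0.30). For positive replicate 1 the counts were 23 and 16 of 33 (medians -0.11 and 0.01). The fractions were separate in 12 genes, or 36.4%, beside 25.3% of all features. Limma called 0 of the 33. Only 4, each with a difference below 0, reached an unadjusted p under 0.05, beside 9.83% of all features in that direction. Rps20 had the lowest difference (-0.53 ± 0.11, limma adjusted p = 0.0926) and Rpl26 the highest (0.05 ± 0.14). Many ribosomal protein genes have near-identical copies in the genome that a probe set may also read, so these values are uncertain.

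**Figure D3:**
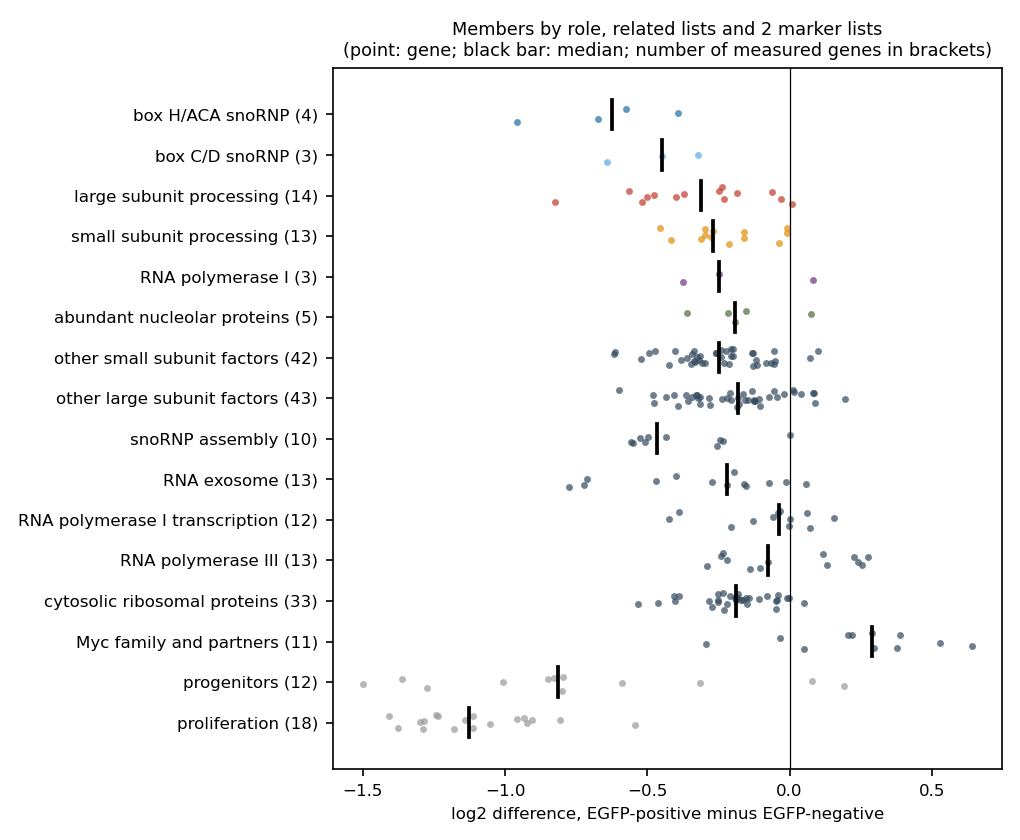
Log2 difference, EGFP-positive minus EGFP-negative, of each gene (points) with the median of each list (black bars), for the members by role, 8 related lists and the progenitor and proliferation markers; brackets give the measured genes. The medians of all 6 role groups lie below 0, from -0.62 to -0.19, between the proliferation genes at -1.13 and the Myc family at 0.29.

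Genes of the Myc family and its partners, which regulate growth genes through E-boxes, had the opposite sign. Of 11 genes 9 were above 0, with a median of 0.29. On both positive arrays 8 read higher than on either negative array, against 22.3% of all features. Limma called 0, and 4 were higher at an unadjusted p under 0.05, against 9.34% of all features. Mycn, known from retinal progenitors, read 1939.4 and 1857.4 on the positive and 1437.5 and 1661.6 on the negative arrays (log2 difference 0.30 ± 0.12, limma adjusted p = 0.262). Myc differed by 0.29 ± 0.15 and Mycl by -0.03 ± 0.17. The shared partner gene Max differed by 0.21 ± 0.10.

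Mxd4 and Mxd1, repressors that compete with Myc for Max, had the largest differences of the list. Mxd4 read 648.5 and 823.4 on the positive and 428.0 and 513.8 on the negative arrays (0.64 ± 0.16, limma adjusted p = 0.133). Mxd1 read 819.2 and 801.7 against 520.7 and 606.4 (0.53 ± 0.12, limma adjusted p = 0.107). Both are known from cells that leave the cycle, and in both the fractions did not overlap. Mga differed by 0.39 ± 0.10, Mxi1 by 0.38 ± 0.10, Mnt by 0.22 ± 0.11 and Mlx, a Max-like partner, by 0.05 ± 0.12. Mxd3, a family member known from dividing cells, had the lowest difference of the list (-0.29 ± 0.12, limma adjusted p = 0.273).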

How the data were processed

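Values were deposited as normalised intensity on a linear scale, 1 column per array. RMA, a background correction, normalisation and probe summary for Affymetrix arrays, and the build mm8 are named per the submitters' processing notes. For its version, probe set definitions and filters, the sources used here give nothing. The linear scale was inferred from the values, which ran from 18.9 to 36625.2 with array medians of 218.4 to 222.9. No value was 0, so log2 needed no pseudocount. Intensities are relative within an array, so total RNA per cell was not measured. Differences were fitted across all 22431 features with limma 3.58.1 in R 4.3.3 (lmFit, eBayes without a trend, two-sided, Benjamini-Hochberg over all features). The variance estimate had 5.26 degrees of freedom, the median SE was 0.12, and the smallest difference called was 0.75, a size that 2 members reached. Precision is limited by the number of arrays. The fit was tested on simulated data with independent noise and planted changes larger than any member's difference, so differences of this size were not covered.

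The members and lists were chosen with earlier results of these data known, so lists are given as counts and medians without a set test. Values on each array are given for called members, the 6 lowest and 3 highest differences, the brightest member of each role group and the 3 with the largest distance between replicates. Array values and examples of further genes, such as the second feature of Wdr12, follow the same rule, which also takes every gene of the Myc family. Of the other related lists it takes the lowest and the highest; Ubtf, Shq1 and Naf1, and the intervals and values of other members, were chosen after they were seen. List symbols were matched to current ones through a RefSeq table of GRCm38.p6. That assembly differs from mm8, and its coordinates are given only for promoter sequences read from it.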

Additional observations from a re-analysis of the deposited data

How the results depend on the processing

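The members' median log2 difference stayed below 0 in all 12 alternatives and moved beyond the spread between replicates only when an array was left out, with values from -0.35 to -0.24. Members called lower numbered 0 with a variance trend and 0 to 2 when 1 array was left out (Gar1 and Nop58 without positive replicate 1, 0 without any of the other 3). All features called lower numbered 21 with a variance trend and 51 with features averaged per gene, and 0 to 762 with 1 array left out. Features called higher numbered 0 to 667 with 1 array left out. The cause was not tested. Each of these fits leaves a fraction with 1 array, assumed to vary like the other fraction. Without negative replicate 1 limma called 0 features with 2346 at an unadjusted p under 0.05, and without negative replicate 2 it called 0 with 3134. Gnl2 ranged from -0.036 to 0.051 with 1 array left out and was below 0 without positive replicate 2 (-0.014) and without negative replicate 2.

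Replicate numbers are shared between the fractions, but the labels do not say what a number marks. Replicate 2 minus replicate 1 correlated between the fractions over all features (Pearson's r = 0.48). With the replicate number as a block, limma called 1500 features lower and 1377 higher, 11 members lower (Gar1, Rrs1, Nop10, Nop58, Nhp2, Brix1, Wdr12, Pes1, Ftsj3, Utp15 and Nop56) and 0 higher. At every other setting limma called 0 members higher.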
